A study of Mus musculus with 15 samples.

Results

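The 10 genes described here encode matricellular proteins. They are the 5 genes of the thrombospondin family (Thbs1, Thbs2, Thbs3, Thbs4 and Comp), the tenascin genes Tnc and Tnxb, the cartilage intermediate layer protein gene Cilp, the periostin gene Postn and the osteonectin gene Sparc. They were taken by symbol from the deposited transcript table. Where a symbol had several transcript lines, the line was chosen by its measured level: the one with the highest mean over all 15 libraries stood for the gene. All 10 were found among the 29072 symbols of the table, and 9 passed the filter on low values. Comp, with a mean of 0.0813 RPKM over the 15 libraries, did not pass, and it is described without a test.

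Matricellular proteins are secreted into the extracellular matrix, where they act less as building material than as regulators: they bind collagens, growth factors, proteases and cell-surface receptors and change how cells attach, spread and respond. Thrombospondins 1 and 2 form trimers that engage CD47, CD36 and integrins and restrain the growth of blood vessels, whereas thrombospondins 3 and 4 and COMP form pentamers. Tenascin-C loosens cell adhesion and appears in development and repair, tenascin-X organises collagen fibrils, periostin and SPARC take part in collagen assembly, and CILP binds TGF-beta. In adipose tissue these proteins come largely from stromal and precursor cells, and SPARC is known for holding back adipocyte differentiation.

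The cells were brown fat precursors of 129SvEv mice, isolated from the interscapular depot (its stromal-vascular fraction) and immortalised with the large T antigen of SV40, so that every group, control included, carried this oncogene. Total RNA was sequenced in 5 groups of 3 libraries. Control cells received no agent, and treated cells received 5.56 nM FGF1, FGF8b or FGF9 for 48 h, or FGF8b at that dose with 2 µM BAY-876, which blocks glucose uptake through GLUT1. The series text gives 1 µg/ml heparin to the FGF-treated cells, whereas in the sample labels heparin appears with FGF9 only, and neither says whether control cells had heparin or how long they were kept. Where heparin differed between groups, ligand and heparin cannot be told apart. There was no group with BAY-876 alone, so its effect was measured in the presence of FGF8b.

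Between 27.01 and 42.6 M reads stood behind a library, as worked out from the steps of its low values. Libraries of 1 group correlated at 0.991 to 0.997 over all tested genes. Nothing states that replicate libraries derive from independent cultures, and p-values therefore reflect only the spread between libraries, which may be technical. The label of preadipocytes was checked against marker genes. Of 6 genes of mature adipocytes, Adipoq, Plin1, Lep and Cidea were at or under 0.0284 RPKM in the mean of every group. Fabp4 was at 5.51 to 8.05 RPKM, and Ucp1 was at 0.0226 RPKM in control, 0.0184 RPKM under FGF1, 26.7 RPKM under FGF8b, 37.4 RPKM under FGF9 and 0.580 RPKM under FGF8b plus BAY-876. The sum of the 6 was 5.03 to 6.69 RPKM in control libraries, 7.41 to 9.27 RPKM under FGF1, 32.7 to 35.5 RPKM under FGF8b, 40.8 to 48.3 RPKM under FGF9 and 5.47 to 6.43 RPKM under FGF8b plus BAY-876. The summed level of 8 precursor genes (Pdgfra, Pdgfrb, Ly6a, Cd34, Dlk1, Ebf2, Col1a1 and Col1a2) was 2905 to 3422 RPKM in control libraries. That sum was 2187 to 2236 RPKM under FGF1, 595 to 721 RPKM under FGF8b, 564 to 729 RPKM under FGF9 and 196 to 213 RPKM under FGF8b plus BAY-876. The precursor genes differed among themselves: between control and FGF1 means, Ly6a went from 1015 to 245 RPKM, Pdgfra from 276 to 298 RPKM and Col1a1 from 433 to 456 RPKM, and Ebf2 was at 11.1 RPKM in control and 12.7 RPKM under FGF8b. Of 6 skeletal muscle genes, Myod1, Myf5 and Myog were at 0 in every group and Acta1 was at 4.48 to 7.59 RPKM. Of 5 leukocyte genes, 4 were in the table: Ptprc was at or under 0.00427 RPKM in the mean of every group, Cd68 at 0.625 to 0.888 RPKM, Csf1r at 0.888 to 1.29 RPKM and Cd14 at 1.60 to 2.85 RPKM. The part of these genes in the results was not tested. In these bulk samples, fewer cells that make a transcript and less of it per cell cannot be told apart.

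Levels are given in RPKM, reads per kilobase of transcript scaled to library depth, and each triplet of values lists the 3 libraries of a group in the order of their replicate numbers. Positions are chromosome, start and end on GRCm38 from the GENCODE vM21 annotation, and the build behind the table is not given in the sources used here. The summed level of the 10 genes was 4247.57 ± 91.78 RPKM in control cells (SD, n = 3), 3900.58 ± 75.68 RPKM under FGF1, 751.82 ± 49.82 RPKM under FGF8b, 734.75 ± 22.75 RPKM under FGF9 and 339.94 ± 8.83 RPKM under FGF8b plus BAY-876. Postn and Sparc together made up 85.8% to 86.9% of that sum in the control libraries and 58.0% to 63.3% in the libraries with FGF8b or FGF9. Within the 10 genes, levels spanned from 0 in 3 libraries for Comp to 2466 RPKM for Postn in a control library. The plot of levels by library shows the 3 libraries of a group close together for most of the genes, with a wider scatter for Comp, Tnxb and Cilp where they were close to 0.

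**Figure D1:**
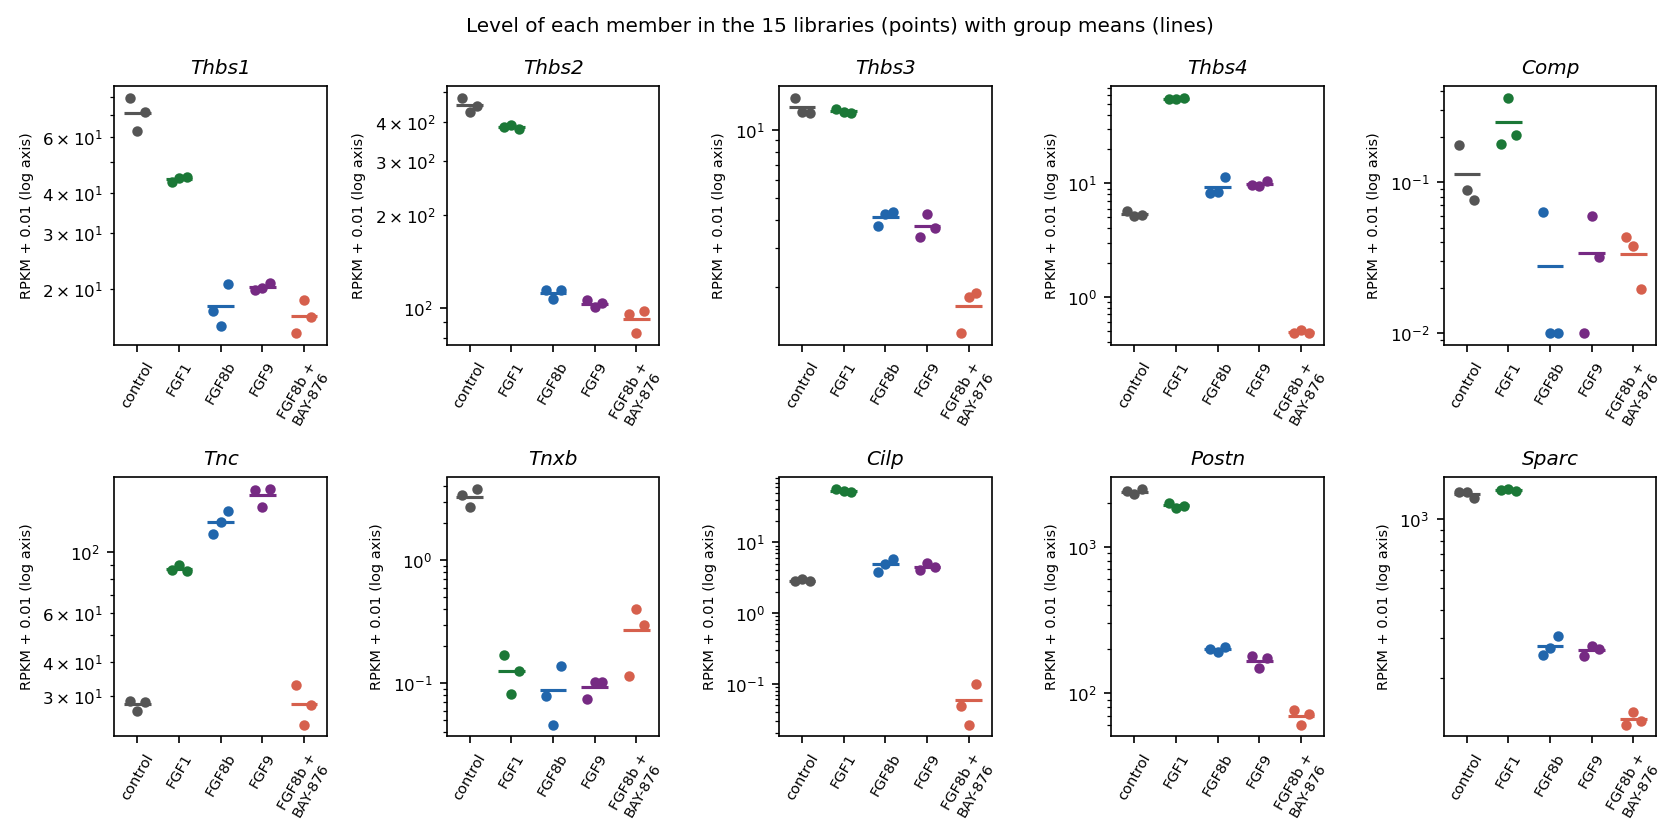
Level of each of the 10 genes in each of the 15 libraries, in RPKM on a log axis with 0.01 added so that values of 0 can be drawn. Points are libraries and colours are groups. Postn lies at 1851 to 2466 RPKM in the control and FGF1 libraries, and Thbs4 (55.5 to 57.1 RPKM) and Cilp (51.7 to 56.2 RPKM) stand out in the FGF1 libraries.

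The trimeric thrombospondins were abundant in control cells and much lower with FGF8b and FGF9. Thbs1 (2:118111876-118127133, plus strand), whose product activates latent TGF-beta and inhibits angiogenesis, stood at 79.4, 62.4 and 71.5 RPKM in control cells, 43.4, 44.4 and 44.9 RPKM under FGF1 and 17.1, 15.3 and 20.8 RPKM under FGF8b. It stood at 19.9, 20.1 and 20.9 RPKM under FGF9 and 14.6, 18.4 and 16.4 RPKM under FGF8b plus BAY-876. Control libraries were above FGF1 libraries and these above all others, while the FGF8b libraries overlapped those of FGF9 and of FGF8b plus BAY-876. Among 4 platelet genes, a cell type known for thrombospondin-1, the sum was 3.34 to 4.01 RPKM in control libraries and 0.341 to 1.12 RPKM under FGF8b. Nearly all of it was Itga2b, whereas the defining genes Pf4 and Ppbp were at or under 0.0324 RPKM in the mean of every group. The part of these 4 genes in the level of Thbs1 was not tested.

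Thbs2 (17:14665500-14694235, minus strand), the close relative that is typical of fibroblasts, was the more abundant of the pair. It measured 479, 430.4 and 449 RPKM in control cells, 385, 389.8 and 378 RPKM under FGF1 and 114, 107 and 114 RPKM under FGF8b. Under FGF9 it measured 106, 100.3 and 104 RPKM, and under FGF8b plus BAY-876 95.3, 82.7 and 97.3 RPKM. No neighbouring groups overlapped in the order control, FGF1, FGF8b, FGF9 and FGF8b plus BAY-876.

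The pentameric thrombospondins did not share a pattern. Thbs3 stood at 13.9, 12.01 and 11.95 RPKM in control cells and 12.4, 12.05 and 11.9 RPKM under FGF1, and these groups overlapped. It stood at 3.74, 4.21 and 4.31 RPKM under FGF8b and 3.34, 4.22 and 3.68 RPKM under FGF9, again with overlap. The values under FGF8b plus BAY-876, 1.24, 1.81 and 1.88 RPKM, were below all others. Thbs3 (3:89215180-89226837, plus strand) overlaps Mtx1 on the opposite strand over its whole 11658 bases, and the sources used here do not say whether reads were counted by strand. This overlap is of gene spans, introns included, and exons were not compared. Where exons overlap, the Thbs3 values can include reads of Mtx1.

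Thbs4 (13:92751590-92794818, minus strand), which is found in tendon, muscle and injured tissue, was a low-level transcript in control cells that was about 10 times as high under FGF1. Its levels were 5.73, 5.13 and 5.20 RPKM in control cells, 55.6, 55.5 and 57.1 RPKM under FGF1 and 8.15, 8.41 and 11.3 RPKM under FGF8b. They were 9.67, 9.50 and 10.6 RPKM under FGF9 and 0.465, 0.496 and 0.469 RPKM under FGF8b plus BAY-876. The FGF1 libraries were above all others, the FGF8b and FGF9 libraries overlapped above control, and the libraries with BAY-876 were below all others. In recovered reads, the FGF1 group held 15898 and the control group 1785, a ratio per read sequenced of 10.5 (95% exact interval 9.97 to 11, covering counting error only).

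Comp (8:70373558-70382066, plus strand), the pentameric thrombospondin of cartilage and tendon, was at the edge of detection. Its values were 0.165, 0.0783 and 0.0659 RPKM in control cells, 0.167, 0.351 and 0.196 RPKM under FGF1 and 0.0529, 0 and 0 RPKM under FGF8b, followed by 0, 0.0496 and 0.0221 RPKM under FGF9 and 0.0335, 0.0278 and 0.00967 RPKM under FGF8b plus BAY-876. These rest on 26 reads in the control group, 50 under FGF1, 4 under FGF8b, 7 under FGF9 and 6 under FGF8b plus BAY-876. The ratio of FGF1 to control was 2.26 (95% exact interval 1.38 to 3.78), and that of FGF8b to control was 0.168 (0.0427 to 0.485), both for counting error only. The FGF1 libraries were above every control library, the lowest of them by a narrow margin.

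The tenascins went opposite ways. Tnc, which marks tissue under remodelling, was at 28.8, 26.6 and 28.7 RPKM in control cells, 86.00, 90.1 and 85.2 RPKM under FGF1 and 117, 129 and 141 RPKM under FGF8b. It was at 169, 146 and 169 RPKM under FGF9 and 33.02, 23.6 and 27.97 RPKM under FGF8b plus BAY-876. The order was FGF9, FGF8b and FGF1 with no overlap, followed by control and FGF8b plus BAY-876, which overlapped each other. Tnc (4:63959785-64047015, minus strand) shares 67162 bases of gene span, introns included, with 8030451A03Rik on the opposite strand. Exons of the pair were not compared. Where they overlap, reads of the pair cannot be told apart without strand.

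Tnxb (17:34670535-34719815, plus strand), the gene of tenascin-X, was near 3 RPKM in control cells and close to 0 in all treated cells. Its values were 3.40, 2.67 and 3.76 RPKM in control cells, 0.161, 0.0716 and 0.117 RPKM under FGF1 and 0.0689, 0.0361 and 0.129 RPKM under FGF8b. They were 0.0645, 0.0931 and 0.0923 RPKM under FGF9 and 0.105, 0.392 and 0.287 RPKM under FGF8b plus BAY-876. Control libraries were above all 12 treated libraries, and neighbours in the order FGF8b plus BAY-876, FGF1, FGF9 and FGF8b overlapped. The control group held 1602 reads against 49 under FGF1, 33 under FGF8b, 46 under FGF9 and 129 under FGF8b plus BAY-876. Control was thus higher than FGF1 by a factor of 27.8 (95% exact interval 20.9 to 37.8, counting error only) and higher than FGF8b by a factor of 44.4 (31.5 to 64.7).

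A list of 5 endothelial genes, all in the table, had its highest sum in control cells, where Tnxb was highest too. Its sum was 7.63 to 8.98 RPKM in control libraries, 1.68 to 1.74 RPKM under FGF1, 0.391 to 0.571 RPKM under FGF8b, 0.327 to 0.515 RPKM under FGF9 and 0.752 to 0.921 RPKM under FGF8b plus BAY-876. The sum was higher under FGF1 than under FGF8b plus BAY-876. Tnxb had means of 0.116 and 0.261 RPKM in these groups, with overlap. Kdr and Tek made up most of that sum in control cells, with 6.18 and 1.94 RPKM, whereas the defining genes Pecam1 and Cdh5 were at or under 0.0813 RPKM in the mean of every group. From control to FGF8b, Pecam1 went from 0.00998 to 0.0813 RPKM and Cdh5 from 0.0389 to 0.0474 RPKM. Emcn went the other way, from 0.106 to 0.00847 RPKM. The part of these 5 genes in the level of Tnxb was not tested.

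Cilp (9:65265180-65280605, plus strand), a matrix glycoprotein gene of cartilage and fibroblasts, followed Thbs4. Its values were 2.79, 2.97 and 2.82 RPKM in control cells, 56.2, 53.4 and 51.7 RPKM under FGF1 and 3.84, 4.89 and 5.87 RPKM under FGF8b. They were 4.01, 5.12 and 4.43 RPKM under FGF9 and 0.0391, 0.0163 and 0.0903 RPKM under FGF8b plus BAY-876. FGF1 libraries were above all others, FGF8b and FGF9 libraries overlapped above control, and those with BAY-876 were below all others. The group sums of reads were 1235 in control, 19800 under FGF1, 1912 under FGF8b, 2236 under FGF9 and 24 under FGF8b plus BAY-876. FGF1 exceeded control 18.8-fold (95% exact interval 17.8 to 20, counting error only).

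Of 8 cartilage genes, 7 were in the table and 1, Sox9, was tested. Their sum was 2.59 to 2.91 RPKM in control libraries, 6.07 to 6.62 RPKM under FGF1, 2.95 to 3.97 RPKM under FGF8b, 3.82 to 4.86 RPKM under FGF9 and 7.22 to 10.02 RPKM under FGF8b plus BAY-876. The sum was above control in every treated group. Most of it was Sox9, with means of 2.36 RPKM in control and 8.73 RPKM under FGF8b plus BAY-876. Col11a2 went the other way, from 0.355 RPKM in control to 0.235 RPKM or less in the mean of every treated group. Acan, Col2a1, Col9a1 and Matn1, which define cartilage, were at or under 0.117 RPKM in the mean of every group. The part of these genes in the level of Cilp was not tested.

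Postn (3:54361109-54391037, plus strand), whose product links collagen to tenascin-C and binds integrins, was the most abundant of the 10 in control cells. It stood at 2384, 2283 and 2466 RPKM in control cells, 2001, 1851 and 1896 RPKM under FGF1 and 201, 190.3 and 205 RPKM under FGF8b. It stood at 179.9, 148 and 172 RPKM under FGF9 and 76.5, 60.7 and 71.6 RPKM under FGF8b plus BAY-876. No neighbouring groups overlapped in that order.

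Sparc (11:55394500-55423183, minus strand), the collagen-binding protein gene, was next in abundance, and FGF1 left it near its control level. Its values were 1323, 1319 and 1239 RPKM in control cells, 1347, 1358 and 1334 RPKM under FGF1 and 252, 270.4 and 307 RPKM under FGF8b. They were 251, 276 and 268 RPKM under FGF9 and 124, 142 and 129 RPKM under FGF8b plus BAY-876. FGF8b and FGF9 libraries overlapped, control and FGF1 libraries were far above them, and libraries with BAY-876 were below them.

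Thbs4 and Cilp on one side, and Postn and Sparc on the other, had the most alike patterns among the 9 tested genes over the 15 libraries (Pearson r of log2 levels 0.991 and 0.994, as a description of libraries that fall into 5 groups). Their promoters are printed to let the 2 pairs be compared: each runs from 250 bases before to 50 bases after the start site, 5′ to 3′, from RefSeq on GRCm38.p6. Thbs4 is on chr13:92794769-92795068 (minus strand) and Cilp on chr9:65264930-65265229 (plus strand). Postn is on chr3:54360857-54361156 (plus strand) and Sparc on chr11:55420031-55420330 (minus strand). The RefSeq start site used for Sparc lies inside the GENCODE gene given above, whose upstream end is at 55423183. Capitals mark letters that match 1 of 5 short motifs.
Thbs4: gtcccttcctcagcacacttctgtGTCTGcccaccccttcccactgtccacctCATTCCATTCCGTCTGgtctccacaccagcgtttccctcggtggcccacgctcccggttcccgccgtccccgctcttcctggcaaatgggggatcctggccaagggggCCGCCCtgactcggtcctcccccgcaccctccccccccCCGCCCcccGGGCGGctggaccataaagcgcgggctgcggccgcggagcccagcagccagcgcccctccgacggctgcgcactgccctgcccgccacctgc
Cilp: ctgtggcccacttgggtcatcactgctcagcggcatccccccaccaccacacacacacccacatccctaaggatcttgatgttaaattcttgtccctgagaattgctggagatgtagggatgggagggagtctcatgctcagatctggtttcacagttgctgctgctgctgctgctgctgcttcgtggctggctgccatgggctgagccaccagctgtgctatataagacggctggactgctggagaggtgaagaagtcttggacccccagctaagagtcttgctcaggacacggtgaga
Postn: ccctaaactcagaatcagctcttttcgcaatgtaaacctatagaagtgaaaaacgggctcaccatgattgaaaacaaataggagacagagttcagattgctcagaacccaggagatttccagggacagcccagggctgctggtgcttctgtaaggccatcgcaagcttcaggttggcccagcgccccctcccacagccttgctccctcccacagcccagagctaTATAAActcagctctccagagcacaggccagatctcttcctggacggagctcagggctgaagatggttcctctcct
Sparc: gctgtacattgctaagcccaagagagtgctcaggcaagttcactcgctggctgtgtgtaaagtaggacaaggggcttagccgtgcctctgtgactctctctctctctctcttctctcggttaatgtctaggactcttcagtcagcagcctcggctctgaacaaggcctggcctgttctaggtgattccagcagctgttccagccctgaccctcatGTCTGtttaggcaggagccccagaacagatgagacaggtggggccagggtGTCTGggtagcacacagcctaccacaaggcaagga

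The motifs searched were the TATA box (TATAAA, forward strand only), AP-1 (TGANTCA), TEAD (GGAATG), the SMAD core element (CAGAC) and the GC box (GGGCGG), the last 4 on both strands. Overlapping matches were all counted. The Thbs4 window held 7 matches, with 2 TEAD matches at -197 and -192, 2 SMAD core elements at -226 and -186 and 3 GC boxes at -89, -51 and -42, counted from the start site. The Cilp window held no match to these exact letters, and near matches were not counted. A part of the motifs in the levels of these genes was not tested. The Postn window held a TATA box at -26, and the Sparc window 2 SMAD core elements at -35 and 15.

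RefSeq windows were found for 8 of the 10 genes, that is for Thbs2, Thbs3, Thbs4, Tnc, Tnxb, Cilp, Postn and Sparc. Among these 8, a TATA box was in 2, AP-1 in 1, TEAD in 1, the SMAD core element in 5 and the GC box in 3. Of all 32851 promoter windows of the same length, 8.3% held the TATA box, 7.8% AP-1, 14.7% TEAD, 49.6% the SMAD core element and 35.7% the GC box. The AP-1 letters were at -55 in Tnxb, and the other TATA box was at -126 in Tnc.

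FGF1 acts on most FGF receptor forms, and the comparison with control asks how these genes differed after 48 h with it, the time of the control cells not being stated. It raised Thbs4, Cilp and Tnc and lowered Tnxb, each by more than 1 on the log2 scale, and it left Thbs3 and Sparc without a call. Thbs1, Thbs2 and Postn fell by small amounts. Changes are differences of log2(RPKM + 0.5) between group means with their standard error, a scale that understates the change of low genes, and the adjusted p is from limma fitted to all 13869 tested genes with Benjamini-Hochberg adjustment.

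With FGF1, Cilp rose by 4.01 ± 0.12 (adjusted p = 5.01e-12), Thbs4 by 3.27 ± 0.10 (adjusted p = 5.01e-12) and Tnc by 1.62 ± 0.10 (adjusted p = 6.22e-09). The log2 change of Tnxb was -2.61 ± 0.14 (adjusted p = 1.44e-09). Tnxb reached the filter of 0.5 RPKM in control libraries only, so it was kept because control was high. Its tests against control in every treated group, and its place in the counts against control, are therefore given as a description. The falls of Thbs1 (-0.67 ± 0.10, adjusted p = 1.14e-04), Postn (-0.31 ± 0.08, adjusted p = 0.00797) and Thbs2 (-0.23 ± 0.06, adjusted p = 0.00699) were smaller, and in each the FGF1 libraries were all below the control libraries. The difference of Thbs3 was -0.05 ± 0.11 (adjusted p = 0.765, 95% interval -0.30 to 0.19). Sparc differed by 0.06 ± 0.07 (adjusted p = 0.568, 95% interval -0.09 to 0.21), although its FGF1 libraries lay above the control libraries by a narrow margin.

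In all, 3 of the 9 tested genes were higher under FGF1, 4 were lower and 2 were not called, where 34.4% of all tested genes were called (19.3% higher and 15.1% lower). A call with a change of at least 1 was made for 4 of the 9 and for 3.84% of all genes. In 8 of the 9 the FGF1 and control libraries did not overlap, against 47.1% of all genes. The median change of the 9 genes was -0.05, beside 0.02 over all genes. In voom, a fit of log2 recovered reads per library depth, the change of Tnxb was -4.81.

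FGF8b, a ligand that is selective for the c-type FGF receptors and FGFR4, lowered the abundant matricellular genes: per read sequenced, Postn was 12-fold lower than in control, Sparc 4.69-fold and Thbs2 4.08-fold. Postn, Sparc, Thbs2, Thbs1, Thbs3 and Tnxb fell and Tnc rose, while Thbs4 and Cilp rose by less than 1 on the log2 scale. The log2 change of Postn was -3.58 ± 0.08 (adjusted p = 1.08e-14). Those of Sparc and Thbs2 were -2.23 ± 0.07 (adjusted p = 2.95e-13) and -2.02 ± 0.06 (adjusted p = 2.08e-13). Thbs1 changed by -1.98 ± 0.10 (adjusted p = 1.68e-10), Thbs3 by -1.52 ± 0.11 (adjusted p = 1.17e-08) and Tnxb by -2.70 ± 0.14 (adjusted p = 1.06e-10).

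Under FGF8b, Tnc rose by 2.18 ± 0.10 (adjusted p = 2.54e-11), Thbs4 by 0.73 ± 0.10 (adjusted p = 8.26e-06) and Cilp by 0.66 ± 0.12 (adjusted p = 1.59e-04). So 3 of the 9 tested genes were higher and 6 were lower, where 64.4% of all genes were called, 37.8% higher and 26.6% lower. Calls with a change of at least 1 numbered 7 of 9, against 12.9% of all genes. The FGF8b and control libraries did not overlap in any of the 9, against 67.5% of all genes. The median change was -1.98, beside 0.08 over all genes. On recovered reads in voom, the change of Tnxb was -5.55 under FGF8b and -5.27 under FGF9.

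FGF9, another paracrine FGF with a partly shared range of receptors, gave values close to those of FGF8b. Again 3 of the 9 tested genes were higher than control and 6 lower, where 65.7% of all genes were called (38.7% higher and 27.0% lower). The log2 change was -3.83 ± 0.08 for Postn (adjusted p = 4.26e-15), -2.29 ± 0.07 for Sparc, -2.13 ± 0.06 for Thbs2 and -1.78 ± 0.10 for Thbs1. It was -1.63 ± 0.11 for Thbs3 and -2.68 ± 0.14 for Tnxb. Tnc rose by 2.50 ± 0.10, Thbs4 by 0.83 ± 0.10 and Cilp by 0.57 ± 0.12, with 5.22e-04 for Cilp as the highest adjusted p of the 9. The median was -1.78, beside 0.09 over all genes, and 7 of 9 genes were called with a change of at least 1, against 14.0% of all genes. The FGF9 and control libraries did not overlap in any of the 9, against 65.8%. The 3 FGF comparisons share the control libraries, so their values are set side by side only as a description, as in the plot of changes under each FGF.

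**Figure D2:**
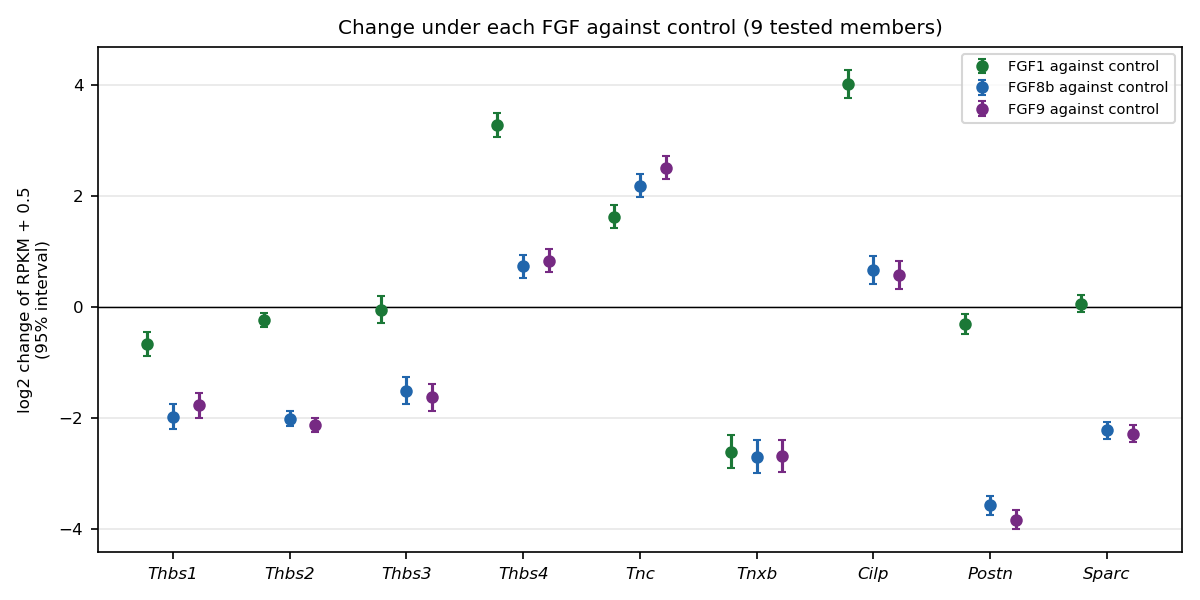
Change of the 9 tested genes under FGF1, FGF8b and FGF9 against control, as the difference of log2(RPKM + 0.5) with its 95% interval from the fit to all genes. Points are estimates and bars are intervals. FGF1 stands apart at Thbs4 and Cilp, with changes of 3.27 and 4.01, and at Postn and Sparc, where its changes of -0.31 and 0.06 compare with -3.58 and -2.23 under FGF8b.

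The tendon list was lower than control in every treated group, FGF1 included, where Sparc was not called and Postn and Thbs2 fell by small amounts. The sum of its 5 genes, all tested, was 7.86 to 8.88 RPKM in control libraries, 4.20 to 4.69 RPKM under FGF1, 1.93 to 2.24 RPKM under FGF8b, 2.16 to 2.45 RPKM under FGF9 and 0.936 to 1.12 RPKM under FGF8b plus BAY-876. Tnmd led it, with a mean of 5.84 RPKM in control and 0.0253 RPKM under FGF8b, whereas Scx, the defining transcription factor of tendon, was 0.264 RPKM in control and 1.53 RPKM under FGF8b. A list of 5 Schwann and neural genes had sums of 4.17 to 4.76 RPKM in control and 1.76 to 2.29 RPKM under FGF8b. The part of these genes in the result was not tested.

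The direct comparisons of FGF8b and FGF9 with FGF1 show which of the genes differed between these treatments. Postn, Sparc, Thbs2, Thbs3, Thbs1, Thbs4 and Cilp were lower under FGF8b than under FGF1, Tnc was higher, and Tnxb was not called. The log2 difference between FGF8b and FGF1 was -3.35 ± 0.12 for Cilp (adjusted p = 1.77e-12), -3.27 ± 0.08 for Postn (adjusted p = 3.34e-14) and -2.54 ± 0.10 for Thbs4 (adjusted p = 4.94e-12). It was -2.29 ± 0.07 for Sparc, -1.78 ± 0.06 for Thbs2, -1.46 ± 0.11 for Thbs3 and -1.31 ± 0.10 for Thbs1. Tnc was higher by 0.56 ± 0.10 (adjusted p = 1.52e-04), and Tnxb differed by -0.09 ± 0.14 (adjusted p = 0.58, 95% interval -0.39 to 0.20).

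So 7 of 9 genes were lower and 1 was higher than under FGF1, where 59.9% of all genes were called, 33.3% higher and 26.6% lower. Groups did not overlap in 8 of the 9, against 68.9% of all genes. FGF9 against FGF1, a comparison that shares the FGF1 libraries, gave the same counts, 7 lower, 1 higher and 1 not called, where 61.9% of all genes were called (34.7% higher and 27.2% lower). Groups did not overlap in 8 of 9, against 66.3% of all genes. Calls with a change of at least 1 numbered 7 of 9 for FGF8b, against 9.99% of all genes, and 7 of 9 for FGF9, against 11.0%. For FGF9, the difference of Cilp was -3.44 ± 0.12, that of Postn -3.52 ± 0.08 and that of Tnc 0.88 ± 0.10 (adjusted p = 1.27e-06). The median of the 9 genes was -1.78 for FGF8b and -1.89 for FGF9, beside 0.04 and 0.06 over all genes.

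FGF9 and FGF8b were not distinguished by these genes in limma. If heparin was given with FGF9 only, as the sample labels read, ligand and heparin cannot be told apart here. The same then holds for FGF9 against FGF1 and against control. None of the 9 was called with its 3 libraries a group, where 0.296% of all tested genes were called (0.202% higher and 0.0937% lower), and voom on recovered reads also called 0 of them. Unadjusted, 2 of them were under the threshold. These were Tnc, at 0.32 ± 0.10 (adjusted p = 0.376 in limma), and Postn, at -0.26 ± 0.08 (adjusted p = 0.434 in limma). Groups did not overlap for Tnc, Postn and Thbs2, 3 of 9 genes, against 10.8% of all genes. With RefSeq lines alone in the fit, Tnc passed the threshold, with a difference of 0.37 (adjusted p = 0.0411). For the other genes the 95% intervals bound the difference, as for Sparc (-0.21 to 0.09), Thbs2 (-0.24 to 0.02) and Thbs4 (-0.11 to 0.31).

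Adding BAY-876 to FGF8b lowered 7 of the 9 tested genes, in a comparison that called 57.3% of all genes. Cilp and Thbs4 fell to below their control level, Tnc fell to a level that did not pass the test against control, and Postn, Sparc and Thbs3, already low with FGF8b, fell by more than 1 on the log2 scale again. Thbs2 fell by little and Thbs1 was not called. Tnxb alone was called higher.

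In numbers, the log2 change from FGF8b to FGF8b plus BAY-876 was -3.31 ± 0.10 for Thbs4 (adjusted p = 7.65e-13). Cilp changed by -3.27 ± 0.12 (adjusted p = 5.35e-12) and Tnc by -2.18 ± 0.10 (adjusted p = 6.81e-11). The change was -1.51 ± 0.08 for Postn (adjusted p = 5.82e-10), -1.11 ± 0.11 for Thbs3 (adjusted p = 7.94e-07) and -1.07 ± 0.07 for Sparc (adjusted p = 4.50e-09). Thbs2 changed by -0.28 ± 0.06 (adjusted p = 9.64e-04), and the difference of Thbs1 was -0.10 ± 0.10 (adjusted p = 0.442, 95% interval -0.32 to 0.12). The added constant compresses the low genes: by recovered reads, FGF8b without the inhibitor was higher 91.4-fold for Cilp (95% exact interval 61.3 to 143) and 19.4-fold for Thbs4 (16.6 to 22.8), for counting error only. In voom on those reads, the change of Cilp was -6.71 on the log2 scale.

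Tnxb was higher with BAY-876 than without by 0.38 ± 0.14 (adjusted p = 0.0271 in limma), on 129 against 33 reads. In voom on those reads it was 1.70 (adjusted p = 0.0147). The groups overlapped, the libraries being 0.105, 0.392 and 0.287 RPKM with the inhibitor and 0.0689, 0.0361 and 0.129 RPKM without. The call was lost with an added constant of 1 RPKM (0.22, adjusted p = 0.0569). It was also lost without FGF8b replicate 1 (adjusted p = 0.0636), without FGF8b replicate 2 (0.093), without replicate 2 of FGF8b plus BAY-876 (0.141) and without replicate 3 of that group (0.0802).

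Of the 9 genes, 7 were lower with the inhibitor, 1 was higher and 1 was not called, beside 22.5% of all genes higher and 34.8% lower. Groups did not overlap in 7 of 9, against 62.7% of all genes, and 6 of 9 were called with a change of at least 1, against 6.88%. The median change was -1.11, beside -0.08 over all genes. Another scaling of the libraries, by trimmed means, moved the split of all calls from 3117 higher and 4824 lower to 4010 higher and 3914 lower, and all 8 calls among the 9 genes passed the threshold under it too.

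**Figure D3:**
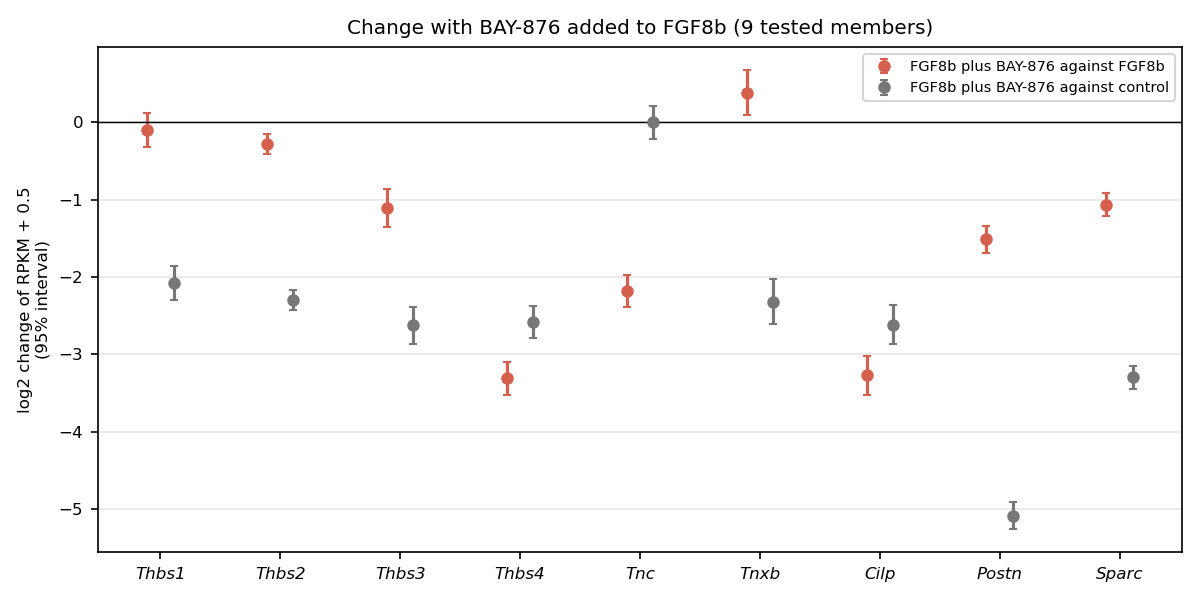
Change of the 9 tested genes when BAY-876 was added to FGF8b, and difference of that group from control, as differences of log2(RPKM + 0.5) with 95% intervals. Thbs4, Cilp and Tnc changed by -3.31, -3.27 and -2.18 against FGF8b, the difference of Tnc from control has an interval of -0.21 to 0.21, and the others ended below control.

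Against control, FGF8b plus BAY-876 left 8 of the 9 genes lower and none higher, where 72.7% of all genes were called, 36.8% higher and 35.9% lower. Postn differed from control by -5.09 ± 0.08 (adjusted p = 1.02e-16), Sparc by -3.30 ± 0.07 (adjusted p = 1.62e-15) and Thbs3 by -2.63 ± 0.11. Cilp and Thbs4, both above control with FGF8b alone, were below it, at -2.62 ± 0.12 (adjusted p = 1.36e-11) and -2.58 ± 0.10 (adjusted p = 1.58e-12). By recovered reads, control was higher 54-fold for Cilp (95% exact interval 36.1 to 84.6) and 13-fold for Tnxb (10.9 to 15.7), for counting error only. Tnxb was at -2.32 ± 0.14, Thbs2 at -2.30 ± 0.06 and Thbs1 at -2.08 ± 0.10. Tnc did not pass the test (adjusted p = 0.991), with a 95% interval of -0.21 to 0.21 for its difference. Groups did not overlap in 8 of 9, against 73.3% of all genes, and 8 of 9 were called with a change of at least 1, against 19.2%. The median was -2.58, beside 0.01 over all genes.

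Several of the 10 genes had more than 1 transcript line in the table, and the lines share reads. The line used for Thbs1 had a mean over the 15 libraries of 34.0 RPKM and the next 33.9 RPKM, and that for Postn 945.7 and 909.3 RPKM. Gaps were wider for Thbs2 (228.8 and 189.1 RPKM), Thbs4 (16.2 and 9.67 RPKM) and Tnc (86.7 and 72.2 RPKM). The line used for Tnc was short, with a length of 820 bases as worked out with the reads. Those of the other genes ran from 2052 to 4653 bases. In control its mean was 28.0 RPKM, beside 22.3 RPKM for the higher RefSeq line of Tnc. Over the 9 lines of Tnc, the log2 change ran from 0.99 to 1.62 under FGF1 and from 1.22 to 2.18 under FGF8b, and the line used had the highest change of them in both. Over the 11 lines of Sparc, it ran from -2.23 to -1.40 under FGF8b, and the line used had the lowest. The plot of transcript lines shows that the lines of a gene lay on the same side of 0 in each of the 3 comparisons drawn wherever the gene was called.

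**Figure D4:**
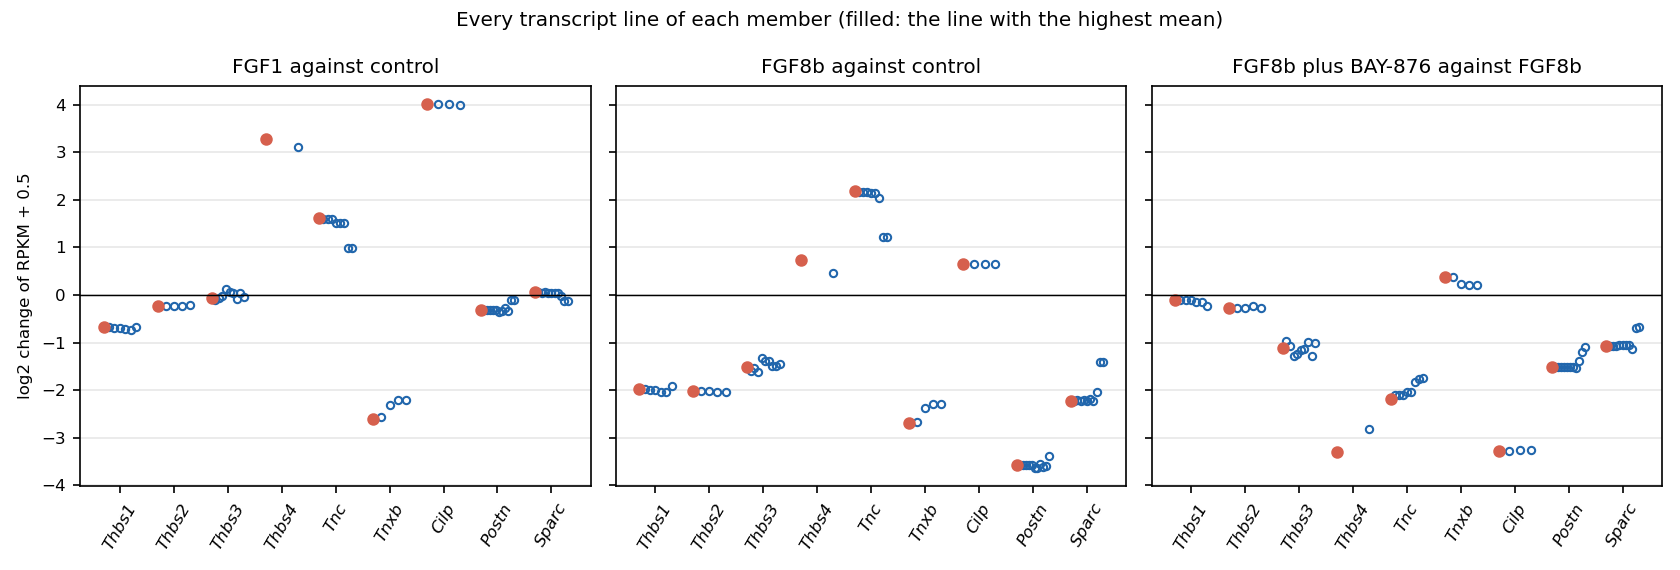
Log2 change of every transcript line of the 9 tested genes that passed the filter, under FGF1 and FGF8b against control and with BAY-876 added to FGF8b. Open points are lines and the filled point is the line used for the gene. The lines of Tnc spread from 0.99 to 1.62 under FGF1, and those of Thbs2 from -0.24 to -0.22.

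The genes whose log2 levels were most alike over the 15 libraries, among 8959 others with at least 5 RPKM in a group, differed from member to member. For Postn they were Emb (r = 0.999) and the symbol listed as Epb4,1l2, for Sparc Sod3 (r = 0.998), Igfbp7 and Pmp22, and for Thbs2 Kcne4 (r = 0.997), Irak3 and Mrgprf. For Thbs3 they were Cd248 (r = 0.995), Spon2 and Ptn, and for Thbs1 Itpkb (r = 0.988), Fam43a and Dlc1. Thbs4 was most like Ncam1 (r = 0.992), Lman1 and Anp32a, and Cilp was most like P4ha1 (r = 0.981), Sec23a and Gfpt1. Tnc was most like Fkbp5 (r = 0.984), Prkacb and Gng2, and Tnxb most like Angpt2 (r = 0.983), Zxdc and Xdh. With 5 groups of 3, such correlations describe shared group levels.

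Beyond the 10, a list of 23 further matricellular genes, among them osteopontin (Spp1), the CCN family, the SPARC relatives and matrilins, was in the table in full, and 16 were tested. Under FGF1, 10 were higher, 4 lower and 2 not called, beside 19.3% higher and 15.1% lower among all genes, with a median of 0.42 beside 0.02. Among these 10, Smoc1 and Tnn passed the filter through the FGF1 libraries, where they were highest, so their part in the count is a description. The mean of Tnn was 1.20 RPKM under FGF1 and 0.0640 RPKM in control. Under FGF8b and under FGF9, 2 were higher, 11 lower and 3 not called, with medians of -1.51 and -1.43 beside 0.08 and 0.09. Among all genes, 37.8% were higher and 26.6% lower under FGF8b, and 38.7% and 27.0% under FGF9. Adding BAY-876 to FGF8b raised 3, lowered 8 and left 5 uncalled, beside 22.5% higher and 34.8% lower among all genes, with a median of -0.21 beside -0.08.

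Spp1, a secreted ligand of integrins and CD44, had the largest rise in that list under each FGF, from 31.3 ± 0.687 RPKM in control (SD, n = 3) to 292 ± 15.03 RPKM with FGF1 and 3301 ± 10.1 RPKM with FGF8b. Its log2 change was 3.20 ± 0.06 with FGF1 and 6.70 ± 0.06 with FGF8b (adjusted p = 9.10e-20). Tgfbi, a TGF-beta-induced adhesion protein related to periostin, rose with FGF1 by 1.96 ± 0.10 and with FGF8b by 0.91 ± 0.10, and with BAY-876 it fell below control. Its mean levels were 126 RPKM in control, 492 RPKM with FGF1, 239 RPKM with FGF8b and 29.7 RPKM with FGF8b plus BAY-876. As with Thbs4 and Cilp, the highest level was with FGF1 and the lowest with FGF8b plus BAY-876.

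Among the SPARC relatives, Smoc2 (-1.93 ± 0.15) and Sparcl1 (-1.35 ± 0.10) fell with FGF1, where Sparc itself was not called. Smoc1, chosen after its values were seen, rose from 0.402 to 1.37 RPKM (1.06 ± 0.11, adjusted p = 2.97e-06). Smoc1 passed the filter through the FGF1 libraries, so its change is given as a description. Wisp2, a CCN family member, was 34.4 RPKM in control and 1.82 RPKM with FGF8b, a change of -3.91 ± 0.13 (adjusted p = 4.45e-13). With BAY-876 added to FGF8b, Cyr61 rose by 0.88 ± 0.09 and Nov by 0.76 ± 0.10, whereas Matn2 fell by 1.84 ± 0.06 on the log2 scale. Smoc2 was at 0.0988 RPKM with FGF8b, so that its change there, -3.36 ± 0.15, depends on the added constant.

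**Figure D5:**
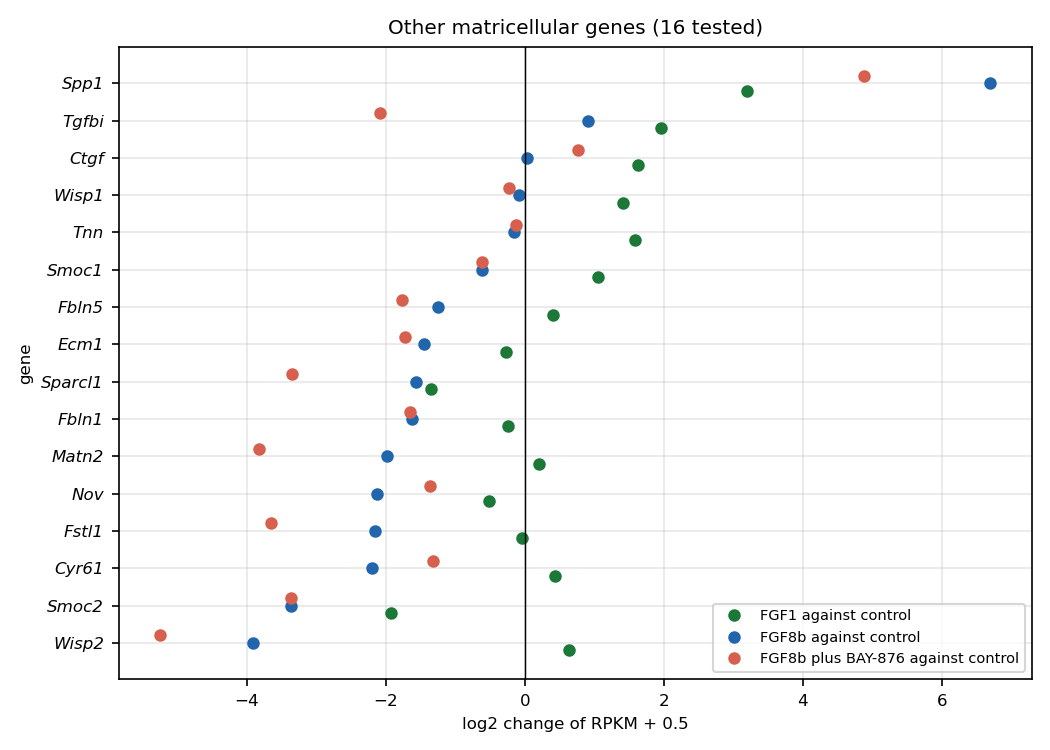
Log2 change of RPKM + 0.5 against control for the 16 tested genes of the list of other matricellular genes, under FGF1, FGF8b and FGF8b plus BAY-876. Points are estimates from the fit to all genes. Spp1 lies highest, at 6.70 under FGF8b, and Wisp2 lowest, at -5.24 under FGF8b plus BAY-876.

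Of 17 receptor genes for these proteins, 16 were tested. Under FGF1, 7 were higher, 2 lower and 7 not called (all genes: 19.3% higher, 15.1% lower), with a median of 0.15 beside 0.02 over all genes. Under FGF8b, and likewise under FGF9, 6 were higher, 6 lower and 4 not called (all genes: 37.8% and 38.7% higher, 26.6% and 27.0% lower), with medians of 0.0013 and 0.17 beside 0.08 and 0.09. With BAY-876 added to FGF8b, 3 were higher, 8 lower and 5 not called (all genes: 22.5% higher, 34.8% lower), with a median of -0.42 beside -0.08. The 2 lower calls under FGF1 were Itga8 and Cd47, and Cd47 (-0.27 ± 0.09, adjusted p = 0.0228) lost its call when any 1 of 4 libraries was left out (control replicates 1 and 3 and FGF1 replicates 1 and 2, adjusted p 0.0505 to 0.0792).

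Cd47, the receptor of thrombospondin-1, was at 113 ± 5.75 RPKM in control and 57.4 ± 0.972 RPKM with FGF8b, a change of -0.97 ± 0.09 (adjusted p = 8.90e-08), and with BAY-876 it fell further (-0.84 ± 0.09). Itga8, an integrin subunit that pairs to bind tenascin-C and osteopontin, fell from 7.36 RPKM to 0.760 RPKM with FGF1 (-2.64 ± 0.13) and 1.18 RPKM with FGF8b (-2.24 ± 0.13). Vldlr, a lipoprotein receptor that also binds thrombospondins, rose from 11.7 RPKM to 36.3 RPKM with FGF8b (1.61 ± 0.11, adjusted p = 3.90e-09). Calr, whose product takes part in the signalling of thrombospondin-1, rose with FGF1 (0.66 ± 0.05), fell with FGF8b (-0.82 ± 0.05) and rose when BAY-876 was added (1.52 ± 0.05).

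Of 14 genes of latent TGF-beta and its receptors and targets, 13 were tested. Under FGF1, 7 were higher, 1 lower and 5 not called, where 19.3% of all genes were higher and 15.1% lower. Among the 7, Tgfb1 (adjusted p = 0.0499 in limma, with overlapping libraries) and Ltbp2 (adjusted p = 0.045 in limma) were close to the threshold. The lower count was 2 with an added constant of 1 RPKM, with trimmed-mean scaling, in voom, with RefSeq lines alone and without control replicate 2. Under FGF8b and under FGF9, 4 were higher and 9 lower, with medians of -0.55 and -0.51 beside 0.08 and 0.09, where 37.8% and 38.7% of all genes were higher and 26.6% and 27.0% lower. With BAY-876 added, 2 were higher, 6 lower and 5 not called, where 22.5% of all genes were higher and 34.8% lower.

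Tgfb3 rose with FGF1 from 8.14 to 35.3 RPKM (2.05 ± 0.09, adjusted p = 2.28e-10). Tgfb2 fell in every treated group, by 1.08 ± 0.10 with FGF1 and 2.44 ± 0.10 with FGF8b on the log2 scale. Tgfbr2, the type II receptor, was 89.4 RPKM in control and 29.04 RPKM with FGF8b (-1.60 ± 0.07), and it fell again with BAY-876 (-0.89 ± 0.07). Tgfb1 rose with FGF8b (0.64 ± 0.13) and rose further when BAY-876 was added (0.81 ± 0.13). These lists were not tested as sets.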

How the data were processed

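RNA was measured by sequencing in 15 libraries, 5 groups of 3, with groups and replicate numbers taken from the labels. Per the labels' protocols, libraries were made from total RNA with a TruSeq kit, and per the submitters' processing notes CASAVA and bcl2fastq were used. For the aligner, genome build, annotation, handling of shared reads and use of strand, the answer is: not given in the sources used here. The authors deposited 1 table of 168326 transcript lines with decimal commas, whose unit is not named. Its values behave as RPKM: 94.6% to 95.5% of low values per library were whole multiples of 1 read (tolerance 0.05), which also gave the depth. Whole reads were recovered for all 13869 tested genes within 0.02 read, with a slack that widened for high counts. The length worked out with the reads equalled the annotated length in 90.9% of 3476 Ensembl lines that could be compared.

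From the deposited values, each of 29072 symbols was represented by the line with the highest mean over the 15 libraries. The 10 genes and the lists of related genes and markers were chosen with earlier results of these data known, so counts of calls are read only beside the share of all genes called. limma 3.58.1 (R 4.3.3), with a mean-variance trend, was fitted to log2(RPKM + 0.5) of genes that reached 0.5 RPKM in 3 or more libraries, over all 15 libraries. Adjusted p used the Benjamini-Hochberg method within each of 8 comparisons, with a threshold of 0.05. The script was tested on simulated data. Intervals of read ratios are exact binomial ones. Named related genes were, per list and comparison, the 2 with the largest change in each direction that were called, had no overlap and reached 1 RPKM in a group. For the pattern of each gene, the 3 others with the highest correlation were named. A few genes that these rules select are not reported here.

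Alternatives were an added constant of 0.1 or 1 RPKM, no filter, trimmed-mean scaling, voom on recovered reads, RefSeq lines only, a fit of the 2 groups alone, a replicate block and leaving out each library in turn. The replicate numbers did not pair libraries across groups: the correlation of deviations was above 0.1 in 11 of 30 same-number pairs.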

Additional observations from a re-analysis of the deposited data

How the results depend on the processing

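The count of members called was the same under every alternative run for FGF1, FGF8b, FGF9 and FGF8b plus BAY-876 against control, and for FGF8b and FGF9 against FGF1. For BAY-876 added to FGF8b it was 7 to 8, and leaving out 1 library each time gave that same range of 7 to 8. For FGF9 against FGF8b it was 0, except with RefSeq lines only, where it was 1 (Tnc), and leaving out libraries kept it at 0. The replicate block, in which numbers that do not pair the libraries were used, gave 7, 9 and 9 members called for FGF1, FGF8b and FGF9 against control, 8 in each comparison with the inhibitor, 8 for each of FGF8b and FGF9 against FGF1, and 0 for FGF9 against FGF8b, the same counts as without it. Only 2 of 15 libraries correlated best with their own number. Over all genes, FGF9 against FGF8b gave 41 calls, 70 with RefSeq lines only and 62 in voom.

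Of the values of single members under an alternative, 991 kept direction and side of the threshold, 5 lost the call, 1 gained it and 11 changed sign. All sign changes were in differences that were not called. Over the leave-one-out fits, Thbs3 under FGF1 ranged from -0.0902 to 0.0162 (without control replicate 1) and Thbs1 with BAY-876 against FGF8b from -0.1947 to 0.0184 (without FGF8b replicate 3). For FGF9 against FGF8b, Tnxb ranged from -0.0370 (without FGF8b replicate 2) to 0.0785, Cilp from -0.2284 to 0.0481 and Sparc from -0.1221 to 0.0189 (both without FGF8b replicate 3). The difference of Tnc between FGF8b plus BAY-876 and control turned to 0.0170 with trimmed-mean scaling, 0.0055 in voom, and 0.0754 with RefSeq lines, and ranged from -0.1196 to 0.1173 over the leave-one-out fits (above 0 without control replicate 1 or 3 or replicate 2 with BAY-876). The cause was not tested. Depth limits Comp (4 to 50 reads a group), Cilp with BAY-876 (24 reads) and Tnxb in treated cells (33 to 129 reads).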
